A study of Mus musculus with 7 samples.

Results

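The Myc locus and the gene-poor stretch downstream of it were described here through the reporter output of their accessible DNA. The members were 500 bp bins of build mm9 whose centre lay on chromosome 15 between 61750000 and 63600000, an interval of 1.85 Mb. A bin had to hold at least 50 plasmid input reads with each of the 3 promoters, and only input depth entered the choice. Of 3700 bins in the interval, 4 met this, out of 30106 bins in the whole genome. They form 3 sites, since 2 of the bins touch.

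The data came from the immature mouse T cell line P5424 and from CapStarr-seq, in which captured DNase hypersensitive DNA is cloned into the transcript of a reporter plasmid. The number of reads of a fragment in reporter RNA over its number in the plasmid input measures its output relative to the other fragments. The groups, each of 1 library, were reporter RNA from plasmids with the promoter labelled pR-Ea, reporter RNA from plasmids with pPGK (the phosphoglycerate kinase promoter) in a library labelled PMA_I, the same without that mark, reporter RNA with SCP1 (a synthetic core promoter), and the inputs of pR-Ea, pPGK and SCP1. PMA and ionomycin, which together mimic signalling from the T cell receptor, are named in the treatment field of all 7 samples, and the title of 1 library alone, marked PMA_I, sets the stimulated group here. Both pPGK libraries share 1 input. All groups are 1 cell line with 1 library each, so no value has a replicate check, no test across samples was possible, and each difference is between libraries.

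Myc encodes a transcription factor that drives growth and cell division, and dividing immature thymocytes depend on it. Pvt1, the next gene downstream of Myc in the RefSeq gene table of build GRCm38.p6, makes a long noncoding RNA and is a known site of viral insertions and breakpoints in mouse lymphoid tumours. The desert beyond Pvt1 is known for distal enhancers of Myc that work in particular cell types, among them one bound by Notch in T cells and a cluster used in blood stem cells and leukaemia. No annotation of the files' build was used here, so none of the bins is assigned to an exon, an intron or one of these enhancers. Distances are from the start of Myc, placed 67 kb above the lower end of the interval from knowledge of the mm9 gene models and good to about 1 kb.

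The Myc bin lies at 61818001 to 61818500 on chromosome 15, 1 kb into the gene. The 78 kb bin lies at 61895001 to 61895500, in the distance class of 5 to 300 kb that was chosen to hold Pvt1. The 1587 kb and 1588 kb bins lie next to each other at 63404001 to 63404500 and at 63404501 to 63405000, near the far end of the interval. No bin of the classes at 300 to 1000 kb and 1000 to 1500 kb, nor of the stretch upstream of Myc, had enough input. The interval held 2.16 eligible bins per Mb, against 13.0 per Mb over the 100.5 Mb of chromosome 15 that the files span.

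Depth was low across the locus. In the interval, 1597 bins held a read in any library, 118 held a read in every input, and 55 reached 50 reads in only 1 or 2 inputs. The interval held 16049 reporter and 6008 input reads for pR-Ea, 17183 reporter reads for pPGK PMA_I, 12611 reporter and 4902 input reads for pPGK, and 14115 reporter and 12788 input reads for SCP1. The libraries as a whole had between 51450446 and 72217277 reporter reads and between 18940646 and 45278192 input reads. These totals are from before positions of low mapping quality were left out, while the interval counts are at the positions kept, called used positions. That filter took the pPGK input from 30248710 to 16822639 reads, the SCP1 input from 45278192 to 43388180 and the pR-Ea input from 18940646 to 18082304. Its loss was thus largest for pPGK. Intervals below are exact (Clopper-Pearson) 95% intervals and cover counting error only, since copies made by PCR are not independent molecules. The standard error (SE) is over distinct fragment positions.

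**Figure D1:**
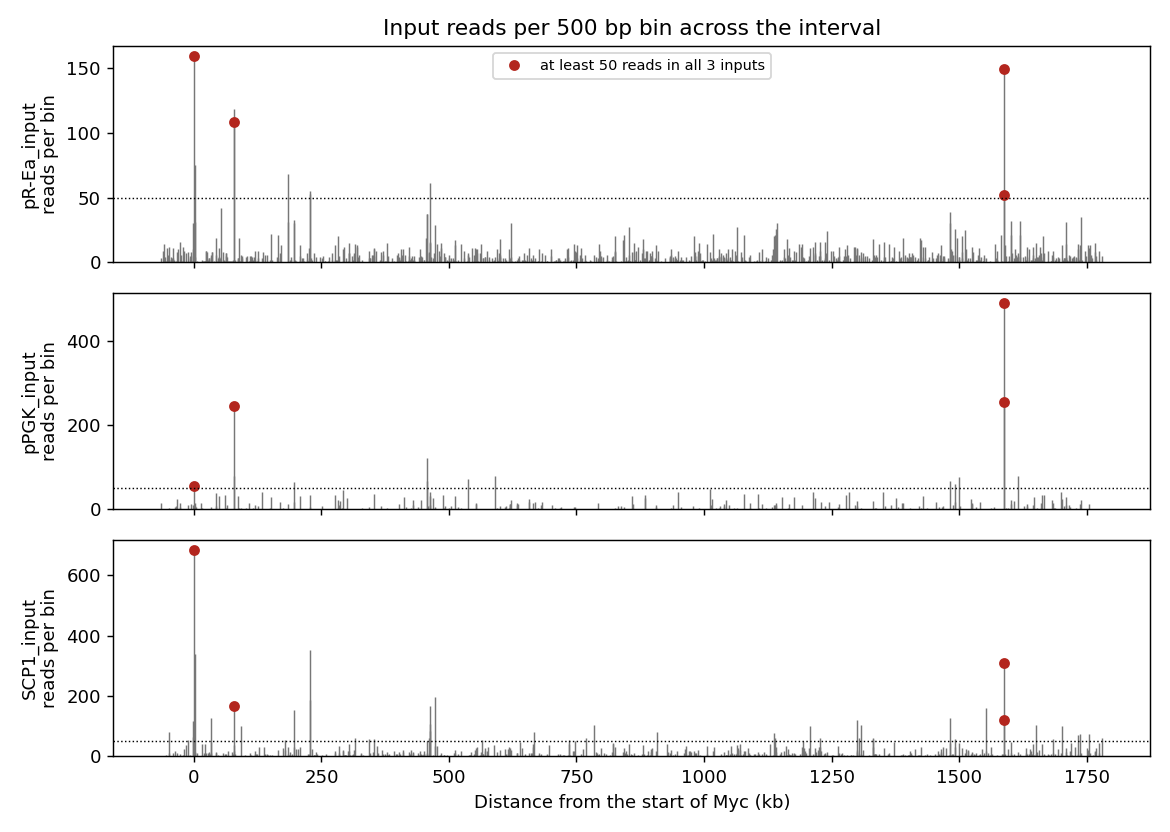
Input reads per 500 bp bin (y axis, linear) against distance from the start of Myc in kb, for the pR-Ea, pPGK and SCP1 inputs; the dotted line is at 50 reads and the red points are the 4 bins used. The tallest bin is the Myc bin in the pR-Ea and SCP1 inputs, with 159 and 683 reads, and the 1587 kb bin in the pPGK input, with 489 reads.

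The inputs did not cover these bins alike. In RPM, reads scaled to 1000000 reads of the library in eligible bins, the Myc bin had 15.6 in the pR-Ea input, 5.26 in the pPGK input and 26.0 in the SCP1 input. The 1587 kb bin had the reverse order for the last pair, with 46.7 RPM in the pPGK input and 4.6 RPM in the SCP1 input, and 5.1 RPM in the pR-Ea input. The 78 kb bin had 10.6, 23.3 and 6.35 RPM, and the 1588 kb bin 14.6, 24.4 and 11.7 RPM, in the pR-Ea, pPGK and SCP1 inputs. Few positions were common to the inputs. In the Myc bin, the SCP1 input held 111 positions and the pPGK input 10, of which 3 were shared, and none was in all 3 inputs. In the 1588 kb bin 1 position was in all 3 inputs, and in the 78 kb and 1587 kb bins 3 were. Comparisons between promoters therefore set largely different fragments of a site beside each other.

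The ratio of reporter to input was the first question, and no library called the Myc bin higher or lower than input. Called bins below are those whose log2 ratio lies at or beyond 1 in either direction, with an interval that leaves out 0 and at least 50 reads. With pR-Ea the Myc bin had 631 reporter and 159 input reads, giving a log2 ratio of 0.54 (interval 0.29 to 0.80, SE 0.13), above 87.5% of the eligible bins. In pPGK PMA_I it had 185 reporter and 55 input reads, giving a log2 ratio of 0.36 (interval -0.07 to 0.83, SE 0.11). With pPGK it had 117 reporter reads over the same 55, giving a log2 ratio of -0.18 (interval -0.66 to 0.31, SE 0.56). With SCP1 it had 918 reporter and 683 input reads, giving a log2 ratio of 0.08 (interval -0.06 to 0.23, SE 0.18). These ratios were above 66.4% of the eligible bins in pPGK PMA_I, 35.4% with pPGK and 64.0% with SCP1. Only the pR-Ea counting interval lay wholly above input. By distinct positions the log2 ratios were 0.29 with pR-Ea, 0.37 in pPGK PMA_I, -0.1 with pPGK and 0.36 with SCP1. By that count pR-Ea was not the highest. The pPGK values of this bin rest on few fragments. The position with most reads, found separately in each library, held 81.8% of its input reads, 85.9% of its PMA_I reporter reads and 57.3% of its pPGK reporter reads. Without the position with most reads of each library its pPGK log2 ratio was 1.01, and the bin was then called above input. That removal took 81.8% of its 55 input reads, and the cutoff of 50 input reads was not applied again. With pR-Ea and SCP1 the top position held at most 13.8% of the reads of the bin.

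**Figure D2:**
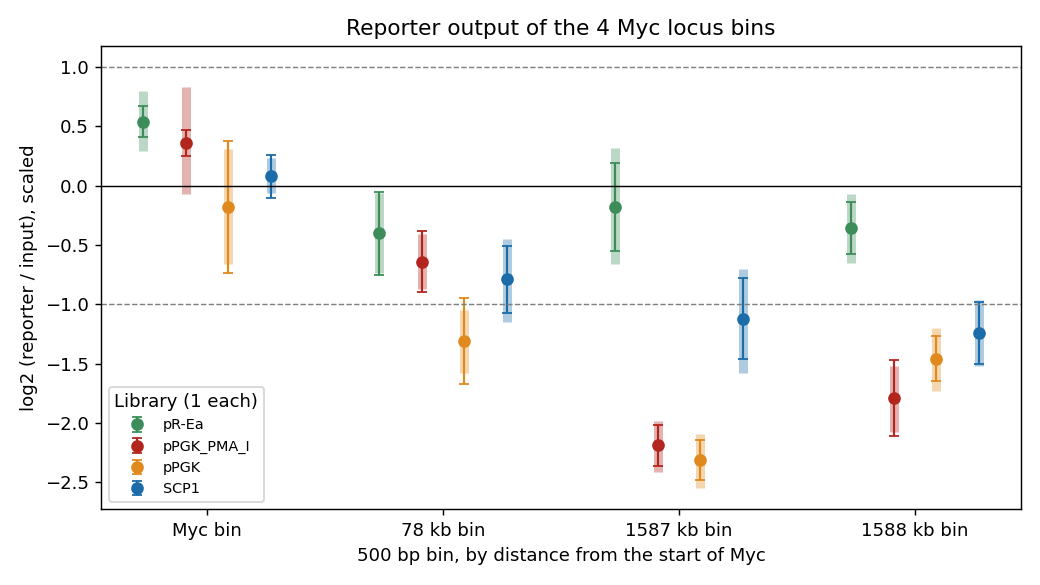
Log2 of reporter over input (y axis, scaled to reads in eligible bins) in the 4 bins for pR-Ea, pPGK PMA_I, pPGK and SCP1, with 1 library each; pale bars are 95% counting intervals, thin bars are 1 SE over positions, and dashed lines mark 2-fold. The 1587 kb and 1588 kb bins lie below -1 with pPGK PMA_I, pPGK and SCP1, and above it with pR-Ea.

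By reads at used positions the 78 kb bin was below input with every library, and the size passed 2-fold with pPGK only. It had 222 reporter and 108 input reads with pR-Ea, a log2 ratio of -0.40 (interval -0.74 to -0.06, SE 0.35). In pPGK PMA_I it had 408 reporter and 244 input reads, giving a log2 ratio of -0.64 (interval -0.87 to -0.41, SE 0.26). With pPGK it had 237 reporter reads over the same input, giving a log2 ratio of -1.31 (interval -1.58 to -1.05, SE 0.36), or 2.47-fold below input. With SCP1 it had 122 reporter and 167 input reads, giving a log2 ratio of -0.79 (interval -1.15 to -0.45, SE 0.28). All fragment midpoints of the 4 libraries lay in 4 of the 10 windows of 50 bp of this bin. By distinct positions its log2 ratios were -0.08 with pR-Ea, 0.11 in pPGK PMA_I, -0.15 with pPGK and -0.07 with SCP1. Without the mapping quality filter they were -0.39, -0.01, -1.17 and -0.86, in the same order.

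The distal site, taken as a whole, was the lowest of the 3 sites in pPGK PMA_I, with pPGK and with SCP1, and not with pR-Ea. In the 1587 kb bin, pR-Ea gave 125 reporter and 52 input reads, giving a log2 ratio of -0.18 (interval -0.66 to 0.32, SE 0.37). In pPGK PMA_I the bin had 279 reporter and 489 input reads, giving a log2 ratio of -2.19 (interval -2.41 to -1.98, SE 0.17). With pPGK it had 237 reporter reads over the same input, giving a log2 ratio of -2.31 (interval -2.55 to -2.09, SE 0.17), or 4.95-fold below input. With SCP1 it had 70 reporter and 121 input reads, giving a log2 ratio of -1.12 (interval -1.58 to -0.70, SE 0.34). Only 2.02% of the eligible bins were lower with pPGK and 1.58% in pPGK PMA_I, while 12.0% were lower with SCP1 and 39.4% with pR-Ea.

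The neighbouring 1588 kb bin gave the same order of pR-Ea above the other libraries. It had 315 reporter and 149 input reads with pR-Ea, a log2 ratio of -0.36 (interval -0.65 to -0.07, SE 0.22). In pPGK PMA_I it had 191 reporter and 255 input reads, giving a log2 ratio of -1.79 (interval -2.08 to -1.52, SE 0.32). With pPGK it had 223 reporter reads over the same input, giving a log2 ratio of -1.46 (interval -1.73 to -1.20, SE 0.19). With SCP1 it had 166 reporter and 309 input reads, giving a log2 ratio of -1.24 (interval -1.52 to -0.96, SE 0.26). Joined into 1 site of 2 bins, the log2 ratios were -0.31 with pR-Ea, -2.04 in pPGK PMA_I, -1.96 with pPGK and -1.21 with SCP1. Counted by distinct positions instead of reads, the 1587 kb bin had 0.66 with pR-Ea, -0.24 in pPGK PMA_I, -0.63 with pPGK and -1.14 with SCP1. The 1588 kb bin then had -0.04 with pR-Ea, -0.42 in pPGK PMA_I, -0.74 with pPGK and -0.53 with SCP1. pR-Ea was the highest by either count, while pPGK was lower than SCP1 at 1587 kb by reads and higher by positions. The mapping quality filter left out 32.9% of the pPGK input reads at 1587 kb and 42.7% at 1588 kb. Without it the 1587 kb bin had -0.23 with pR-Ea, -1.84 in pPGK PMA_I, -2.2 with pPGK and -1.24 with SCP1. The 1588 kb bin then had -0.37, -1.28, -1.18 and -1.33, in the same order.

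None of the 4 bins was called above input by reads at all used positions, and the counts below input differed between libraries. With pR-Ea 0 of 4 were called lower, where 8.12% of all eligible bins were, and 0.82% were called higher. In pPGK PMA_I 2 of 4 were lower, where 9.36% of all bins were and 7.57% were higher. With pPGK 3 of 4 were lower, against 9.52% of all bins, with 3.84% higher. With SCP1 2 of 4 were lower, against 14.5% of all bins, with 3.74% higher. The bins called in more than 1 library are the 2 of the distal site, which touch, and both pPGK ratios share 1 input, so these counts are not independent. The median log2 ratio of the 4 bins was -0.27 with pR-Ea, -1.22 in pPGK PMA_I, -1.38 with pPGK and -0.96 with SCP1, beside medians of -0.02, 0.07, 0.07 and -0.15 over all eligible bins. Counted by distinct positions, 0 of 4 were lower with pPGK and in pPGK PMA_I, and 1 of 4 with SCP1. Without the position with most reads, and with no second check of input depth, the Myc bin was called higher with pPGK. On a grid moved by 250 bp 1 of 3 bins was called higher in pPGK PMA_I. At a cutoff of 100 input reads 2 bins were left, the 78 kb and 1588 kb bins. The shares of all bins called under these alternatives are not given here, so these counts have no genome value beside them. No neutral insert was used here as a baseline, so a value below 0 is below the average site and is not shown to silence.

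**Figure D3:**
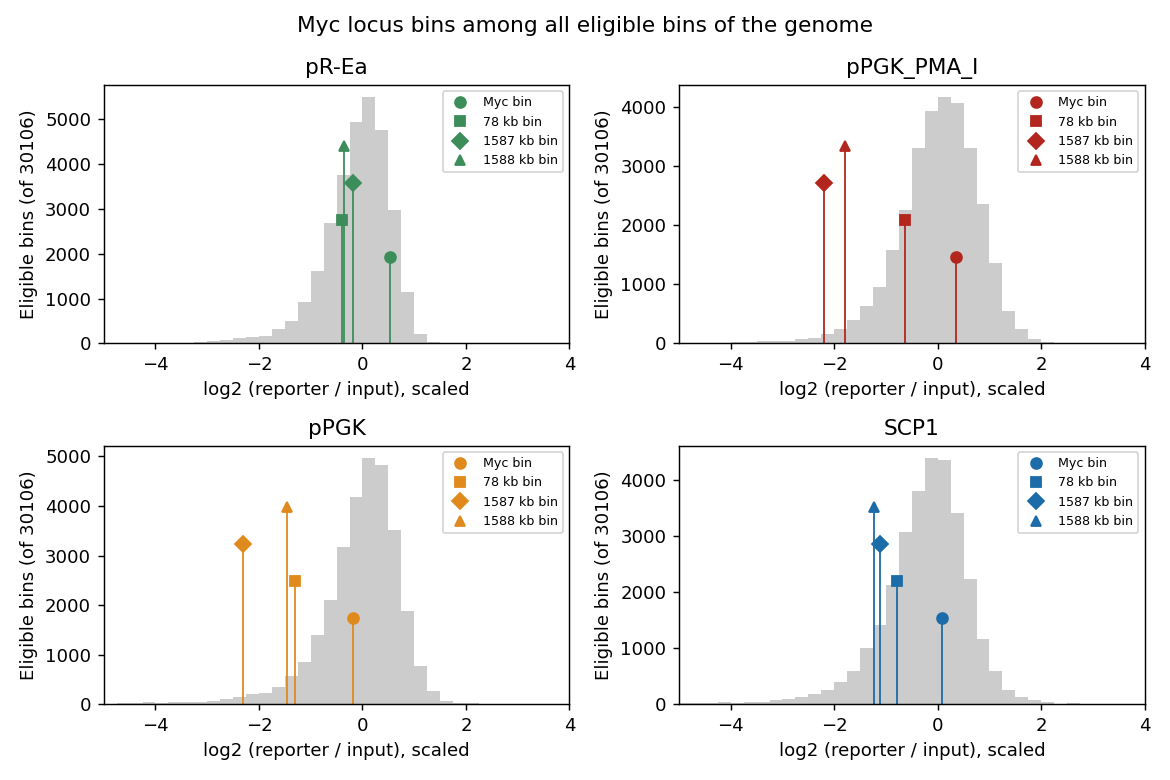
Histograms of the log2 ratio of reporter over input over all 30106 eligible bins (grey, bars of 0.25 wide; y axis, number of bins), with the 4 bins of the Myc locus marked at their own values; marker height has no meaning. The 1587 kb bin lies in the lower tail in both pPGK panels and near the middle in the pR-Ea panel, at -0.18.

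Fragments within a site were spread differently between libraries. In the Myc bin, fragment midpoints of the inputs filled all 10 windows of 50 bp with pR-Ea and SCP1 and 4 windows with pPGK, where 1 window held 83.6% of the input reads. At the distal site, the pPGK input was highest 400 to 450 bp above the lower edge, with 30.1% of its reads, while the pR-Ea input was highest at 650 to 700 bp and the SCP1 input at 700 to 750 bp. The pPGK reads at used positions also lay almost wholly on 1 strand in each bin. A position listed on both strands carried the same counts on each, and was set to the plus strand here. In the Myc and 78 kb bins all pPGK reads at used positions were on the minus strand, and at 1587 kb 232 of the 237 pPGK reporter reads and 488 of the 489 input reads were on the plus strand. With SCP1, the strands of the 1587 kb bin gave log2 ratios of -0.79 (plus) and -1.78 (minus, from 17 reporter and 48 input reads). With pR-Ea they gave -0.16 and -0.19. The part that strand, fragment choice and input level play in the differences between promoters was not tested.

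**Figure D4:**
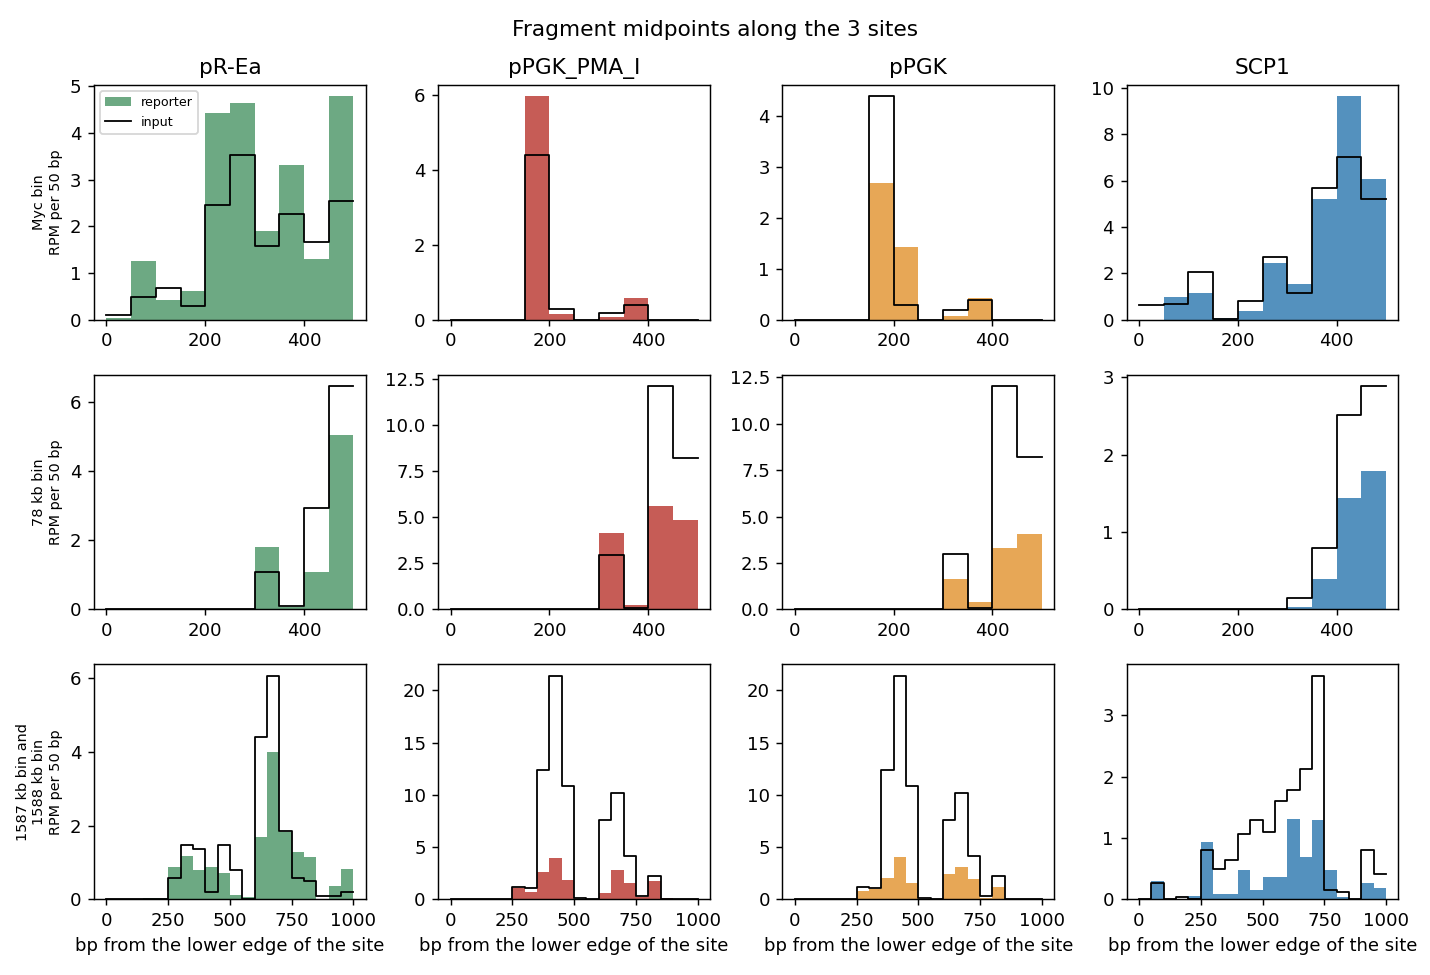
RPM per 50 bp window of fragment midpoints (y axis, its own scale in each panel) along the 3 sites (rows; x axis, bp from the lower edge of the site) in pR-Ea, pPGK PMA_I, pPGK and SCP1 (columns); coloured bars are the reporter and black steps the input. At the distal site the pPGK input stands far above the pPGK reporter at 400 to 450 bp, a window that holds 30.1% of that input.

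The 3 promoters were compared on the log2 ratio to their own inputs in 12 differences (3 pairs in 4 bins), with an interval from the SE over positions. Between pR-Ea and pPGK, the 1587 kb bin was higher with pR-Ea by 2.13 (interval 1.34 to 2.93) and the 1588 kb bin by 1.09 (interval 0.51 to 1.68). The difference at 1588 kb was 0.81 without the mapping quality filter, 0.70 by distinct positions and 0.91 without the position with most reads, each without a call, while that at 1587 kb was 1.97, 1.29 and 2.18. By reads at used positions these were 2 of 4 bins, beside 5.44% of all eligible bins higher and 6.54% lower with pR-Ea. The Myc bin differed by 0.72 (interval -0.41 to 1.85) and the 78 kb bin by 0.90 (interval -0.08 to 1.89), both without a call. Between pPGK and SCP1 the 1587 kb bin was lower with pPGK, at -1.19 (interval -1.94 to -0.44), which was 1 of 4 bins beside 2.65% of all bins lower and 8.17% higher. That difference was 0.51 by distinct positions and -0.98 without the position with most reads, both without a call. The other bins differed between pPGK and SCP1 by -0.51 (interval -1.41 to 0.38) at 78 kb, -0.26 (interval -1.42 to 0.90) in the Myc bin and -0.22 (interval -0.86 to 0.41) at 1588 kb. Between pR-Ea and SCP1 all 4 differences were above 0 and none was called, beside 9.43% of all bins higher and 5.63% lower. The median of this difference over all eligible bins was also above 0, at 0.14. The 4 differences were 0.46 (interval 0.02 to 0.90) in the Myc bin, 0.39 (interval -0.49 to 1.27) at 78 kb, 0.94 (interval -0.04 to 1.93) at 1587 kb and 0.87 (interval 0.20 to 1.54) at 1588 kb. By distinct positions they were -0.07, -0.01, 1.8 and 0.49, in the same order.

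The PMA_I library was compared with the unmarked pPGK library on reporter reads, where the shared input cancels, to ask how output changed in the library marked for the stimulus. None of the 4 bins was called, and over all bins 0.793% were called higher and 0.393% lower. The 78 kb bin had 14.9 RPM in PMA_I and 9.39 RPM in pPGK, a log2 ratio of 0.67 (interval 0.44 to 0.91, SE 0.42). This counting interval lies above 0, while the interval over positions, -0.16 to 1.49, holds it. The Myc bin had 6.78 RPM in PMA_I and 4.64 RPM in pPGK, a log2 ratio of 0.54 (interval 0.21 to 0.89, SE 0.59). Without the position with most reads of each library, which held 85.9% and 57.3% of those reads, this ratio was -0.98. The 1587 kb bin had 10.2 RPM in PMA_I and 9.39 RPM in pPGK, a log2 ratio of 0.12 (interval -0.13 to 0.38, SE 0.12). The 1588 kb bin had 7.0 RPM in PMA_I and 8.84 RPM in pPGK, a log2 ratio of -0.34 (interval -0.62 to -0.05, SE 0.27), and 0.32 by distinct positions. Ratios of the first pair were higher than those of 95.8% and 92.2% of the eligible bins, and those of the distal site than 58.4% and 11.9%. At the distal site the filter on mapping quality left out 17.7% of the PMA_I reporter reads and 31.1% of the pPGK reporter reads of the 1587 kb bin, and 37.4% and 47.5% of those of the 1588 kb bin. Without that filter, the log2 ratios were 1.01 in the Myc bin, 1.15 at 78 kb, 0.36 at 1587 kb and -0.10 at 1588 kb, and the Myc and 78 kb bins were called higher. Yet the filter left out only 0 PMA_I and 2 pPGK reporter reads of the Myc bin, and 14 and 9 of the 78 kb bin. It also changed the library totals, from 61707100 to 55576187 PMA_I and from 72217277 to 46088485 pPGK reporter reads. The part of this change of scale in the 2 calls was not tested. The share of all bins called higher without the filter is not given here, so the 2 calls cannot be read as particular to the locus.

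Bins just inside and just outside the cutoff of 50 input reads were as follows, as a description. Inside it, the 1587 kb bin had 52 reads in its shallowest input and the Myc bin 55. Outside it, the bin at 1482 kb had 39 reads in its shallowest input, that at 457 kb 37, that at 79 kb 36 and that at 227 kb 35. The 79 kb bin, which touches the 78 kb bin, had log2 ratios of -1.25 with pR-Ea, -1.21 in pPGK PMA_I, -1.33 with pPGK and -0.84 with SCP1. The 1482 kb bin had -0.07 with pR-Ea, 1.03 in pPGK PMA_I, 0.87 with pPGK and -0.45 with SCP1. The 227 kb bin had 826 reporter and 352 input reads with SCP1, a log2 ratio of 0.88, and -0.19 with pR-Ea. The 457 kb bin had 17 reporter and 49 input reads with SCP1, a log2 ratio of -1.81, and -0.07 with pPGK.

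To set the bins in their surroundings, all reads of the interval were also pooled by distance class, scaled to all reads at used positions. In the class around Myc, from 1 kb upstream to 5 kb downstream, the log2 ratio of reporter to input was 0.42 with pR-Ea (SE 0.10), -0.13 in pPGK PMA_I (SE 0.19), -0.41 with pPGK (SE 0.40) and 0.15 with SCP1 (SE 0.16). At 1000 to 1500 kb, which has no member bin, it was 0.08 with pR-Ea (SE 0.07), 0.58 in pPGK PMA_I (SE 0.12), 0.47 with pPGK (SE 0.12) and 0.09 with SCP1 (SE 0.11). Beyond 1500 kb it was -0.23 with pR-Ea (SE 0.10), -0.47 in pPGK PMA_I (SE 0.22), -0.63 with pPGK (SE 0.19) and -0.34 with SCP1 (SE 0.13). Without the bins of the distal site the last class had -0.21 with pR-Ea, 0.37 in pPGK PMA_I, 0.13 with pPGK and -0.21 with SCP1. Both pPGK values were thus below 0 only with those bins included. At 5 to 300 kb the log2 ratio was -0.20 with pR-Ea, -0.24 in pPGK PMA_I, -0.55 with pPGK and -0.10 with SCP1. Without the 78 kb bin these were -0.17, -0.06, -0.33 and -0.06. Members were chosen for input depth, which is the denominator of these ratios, and the rest of each class failed that cutoff. The 4 bins held 21.3% of the pPGK input reads of the interval and 6.45% of its pPGK reporter reads. Eligible bins of the whole genome also held a larger share of the pPGK input than of the pPGK reporter. The part of this choice in the contrast was not tested. Upstream of Myc it was 0.08 with pR-Ea (SE 0.19), 0.57 in pPGK PMA_I (SE 0.25), 0.19 with pPGK (SE 0.23) and -0.20 with SCP1 (SE 0.25).

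**Figure D5:**
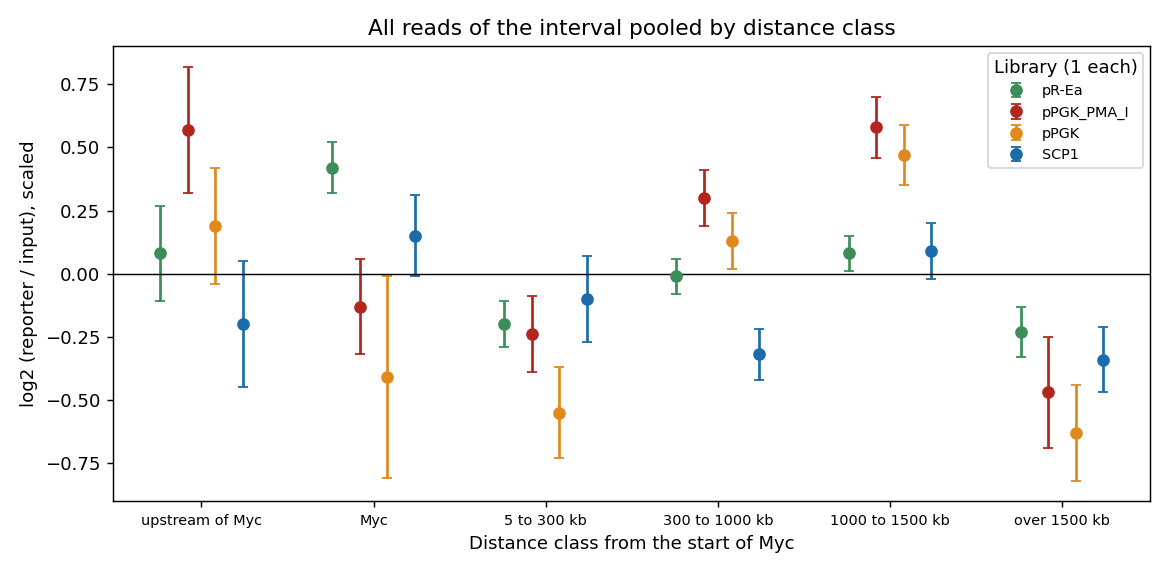
Log2 of reporter over input (y axis, scaled to all reads at used positions) for all reads of the interval pooled in 6 distance classes from the start of Myc (x axis), with 1 library each for pR-Ea, pPGK PMA_I, pPGK and SCP1; bars are 1 SE over positions. Both pPGK libraries are highest at 1000 to 1500 kb, at 0.58 and 0.47, and lowest beyond 1500 kb, at -0.47 and -0.63. In pPGK PMA_I the class upstream of Myc is level with the highest, at 0.57 (SE 0.25).

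Over the whole interval the PMA_I reporter had 17183 reads and the unmarked pPGK reporter 12611, a log2 ratio of 0.18 (SE 0.05) at this scaling, and 0.18 without the 4 bins. By class it ran from 0.39 upstream of Myc (SE 0.12) and 0.30 at 5 to 300 kb (SE 0.11) to 0.17 at 300 to 1000 kb (SE 0.09), 0.11 at 1000 to 1500 kb (SE 0.11) and 0.16 beyond 1500 kb (SE 0.11). The class around Myc had 0.28 (SE 0.46). Against input, the interval without the 4 bins had log2 ratios of -0.03 with pR-Ea (SE 0.04), 0.34 in pPGK PMA_I (SE 0.07), 0.16 with pPGK (SE 0.07) and -0.12 with SCP1 (SE 0.06). Bins below the input cutoff leaned the same way with pPGK over the whole genome. Eligible bins held 27296672 of 55576187 PMA_I reporter, 25236944 of 46088485 pPGK reporter and 10463022 of 16822639 pPGK input reads. At this scaling the remaining bins of the genome thus lay above 0 in all 3 of these pPGK ratios. The values above are not shown to be particular to the locus.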

How the data were processed

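The sources used here give no order or settings of the authors' steps. The tools are bedtools 2.28.0, Bowtie2 and SAMtools, and the build is mm9, per the submitters' processing notes. Nearly all lines of the deposited files are fragments of 315 bp (9587238 of 9587416 with SCP1), with whole-number counts per 5′ end position in columns 7 and 8, read here as reporter and input from their values, and the deposited mapping quality score in column 5. The score reached down to 30 with SCP1 and pR-Ea and to 0 in both pPGK files, so positions with a score below 30 in any file were left out. A position listed on both strands was counted once, on the plus strand. Both pPGK files held the same input at all 4697308 input positions.

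Reads were placed at fragment midpoints in 500 bp bins and scaled to each library's total over eligible bins, between 10205780 and 33402267 reads. Log2 ratios used a pseudocount of 1. With 1 library per group calls follow size: 2-fold, a 95% exact interval without equality (for promoter differences, an SE interval over positions), and 50 reads. SE takes positions as independent. Named bins were all called bins, the extremes of each ratio, those around Myc and the 3 with most input, which together are the 4 members. The members and lists were chosen with earlier results of these data known. Python 3.11.15 with pandas 2.3.3, numpy 2.4.6 and scipy 1.17.1 was used. The alternatives in the closing section changed scaling, filters, counting unit, grid, cutoffs and pseudocount.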

Additional observations from a re-analysis of the deposited data

Results flagged for a closer look

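Of the differences between promoters in the ratio of reporter to input, 3 passed 2-fold with an interval over positions that left out 0, all at the distal site. They were not tested across replicates, since each promoter has 1 library. The 1587 kb bin was at 2.13 between pR-Ea and pPGK and at -1.19 between pPGK and SCP1, and the 1588 kb bin at 1.09 between pR-Ea and pPGK. In the 1587 kb bin the pPGK input had 46.7 RPM, against 5.1 RPM in the pR-Ea input and 4.6 RPM in the SCP1 input. In the 1588 kb bin the pPGK input had 24.4 RPM against 14.6 RPM in the pR-Ea input. The 78 kb bin, which had no call, had 23.3 against 10.6 RPM. The part of input level in these differences was not tested.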

How the results depend on the processing

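No paired analysis was possible because each group holds 1 library. For 8 comparisons and 13 alternatives, 9 of them planned and 4 chosen after seeing the data, 71 of 101 counts of called bins stayed within 1.5 times the main count in both directions. SCP1 ratios called 1 bin lower with the median set to 0, by distinct positions, on a grid moved by 250 bp and at 100 input reads, and 4 of 11 lower at 20 input reads, instead of 2 lower. pPGK called 0 by distinct positions, and 4 without the top position (3 lower, 1 higher), instead of 3 lower. The bin then called higher was the Myc bin, whose input depth was not checked again after the removal. pPGK PMA_I called 0 by distinct positions, 2 on the moved grid (1 lower, 1 higher), 1 lower at 100 input reads and 4 at 20 (3 lower, 1 higher), instead of 2 lower. pR-Ea called 1 lower at 20 input reads instead of 0. PMA_I over pPGK called 2 higher without the mapping filter and 1 higher at 1.5-fold, instead of 0. pPGK against SCP1 called 0 without the mapping filter, by distinct positions, without the top position and at 100 input reads, 1 higher on the moved grid and 3 at 20 input reads (1 lower, 2 higher), instead of 1 lower. At 1587 kb this difference turned to 0.51 by distinct positions, the 1 called value to change sign. pR-Ea against SCP1 called 1 higher without the mapping filter, by distinct positions, at 1.5-fold and with the score taken line by line, and 2 at 20 input reads (1 lower, 1 higher), instead of 0. pR-Ea against pPGK called 1 higher without the mapping filter, by distinct positions, without the top position, on the moved grid and at 100 input reads, instead of 2 higher. At 100 input reads only 2 of the 4 bins were left, at 20 there were 11, and the moved grid had 3 other bins. The causes of the other changes were not tested. Shares of all eligible bins called under the alternatives are not given here, so these counts have no genome value beside them. Of 304 values of single bins, 269 stayed within the main interval. The 1.5-fold threshold and the interval over positions cannot move a value and are not among the 304, nor is the interval over positions, already used for promoter differences, among their counts. The Myc bin had 55 pPGK input reads on 10 positions and the 1587 kb bin 52 pR-Ea input reads.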

Other observations

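In 7 bins with 20 to 49 reads in their shallowest input, the log2 ratio of reporter to input was below 0 in 6 with pR-Ea, 2 in pPGK PMA_I, 3 with pPGK and 6 with SCP1. They fell short of the cutoff of 50 input reads. The share of bins of this depth below 0 over the genome is not given here, so the counts are not shown to be particular to the locus. The 196 kb bin had 418 PMA_I reporter, 280 pPGK reporter and 65 pPGK input reads, with log2 ratios of 1.29 in pPGK PMA_I and 0.83 with pPGK over 4 input positions, and -0.08 with pR-Ea. The 621 kb bin had 0 reporter reads and 20 input reads with SCP1, on 4 input positions, and 66 reporter and 23 input reads with pPGK. The bin next to the Myc bin, at 2 kb, had 357 reporter and 339 input reads with SCP1, a log2 ratio of -0.27, and 205 reporter and 75 input reads with pR-Ea, a log2 ratio of 0.01.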
